A study of Mus musculus with 2 samples.

Results

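The Ifit genes encode interferon-induced proteins built of tetratricopeptide repeats that bind RNA. The 4 rows of the deposited count table with the symbols Ifit1, Ifit2, Ifit3 and Ifit3b were taken by name, 4 of 25509 genes, and all 4 reached 10 counts in at least 1 of the libraries, the minimum set here for a fold change. The table holds 2 poly(A) RNA libraries of C57BL/6 soft-tissue sarcoma cells, 1 of cells transduced with a short hairpin against the circular RNA circCsnk1g3 (shcircCsnk1g3) and 1 of cells given the control hairpin (shCTR). Both libraries come from the same kind of cell, a mesenchymal stem cell with p53 KO and Ccne1 overexpression that had formed a subcutaneous tumor, was seeded in the lungs of further recipient mice and was recovered from the lung foci before the hairpins were introduced. The circCsnk1g3 hairpin targets the backsplice junction of the circle, both hairpins were delivered by lentivirus with puromycin selection, and the number of clones and the number of mice behind each library are not given in the sources used here. The comparison asks which transcripts of the tumor cells differ when the circle is silenced.

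Ifit genes are among the first to be transcribed when type I interferon, or a viral RNA sensor such as RIG-I, is activated. The signal runs from the receptor through Jak1 and Tyk2 to a transcription factor complex that holds Stat2 and Irf9 and binds the interferon-stimulated response element, and IRF proteins can act on the same element directly. Ifit1 recognises RNA whose 5′ cap lacks ribose methylation, a mark that the cell uses to tell its own messenger RNA from that of some viruses, and it keeps such RNA from being translated. Ifit2 binds RNA and other Ifit proteins, and mice without it are sensitive to several neurotropic viruses. The human counterpart of Ifit3 binds and stabilises IFIT1. Ifit3b is a close mouse duplicate of Ifit3.

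The sequence ahead of each gene is shown because the interferon-stimulated response element is the DNA site through which these genes are known to respond. RefSeq promoter windows on GRCm38 (250 bases before and 50 after a transcript start) were searched on both strands for the core of that element, written GAAANNGAAA, or TTTCNNTTTC as read on the opposite strand. All 4 genes were matched by symbol, with 1 window each for Ifit1, Ifit3 and Ifit3b and 2 windows for Ifit2. The sequences give the bases ahead of the transcript, on the plus strand and 5′ to 3′, with matches to the core in capitals, for Ifit1 (chr19:34640744-34640870), Ifit3 (chr19:34583279-34583528), Ifit3b (chr19:34607707-34607956) and Ifit2 (chr19:34550444-34550693). The Ifit1 stretch is shorter because bases inside an annotated transcript were left out.
Ifit1: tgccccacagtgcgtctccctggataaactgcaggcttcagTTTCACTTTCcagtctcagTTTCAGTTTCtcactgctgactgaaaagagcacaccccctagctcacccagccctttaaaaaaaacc
Ifit3: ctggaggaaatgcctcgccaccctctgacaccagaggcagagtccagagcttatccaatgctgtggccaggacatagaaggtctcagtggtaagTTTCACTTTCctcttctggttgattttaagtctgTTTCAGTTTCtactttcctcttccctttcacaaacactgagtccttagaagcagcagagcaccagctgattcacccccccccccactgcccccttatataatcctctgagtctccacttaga
Ifit3b: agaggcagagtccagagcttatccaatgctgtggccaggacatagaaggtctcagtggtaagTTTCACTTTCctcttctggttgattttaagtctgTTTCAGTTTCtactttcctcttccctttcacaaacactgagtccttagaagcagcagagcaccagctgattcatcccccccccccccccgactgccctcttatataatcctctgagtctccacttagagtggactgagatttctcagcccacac
Ifit2: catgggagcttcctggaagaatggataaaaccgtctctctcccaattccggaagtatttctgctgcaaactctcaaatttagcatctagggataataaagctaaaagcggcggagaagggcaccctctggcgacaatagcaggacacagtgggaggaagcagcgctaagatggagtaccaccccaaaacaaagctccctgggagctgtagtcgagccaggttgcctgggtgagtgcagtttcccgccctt

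The windows of Ifit1, Ifit3 and Ifit3b each held 2 matches, and both windows of Ifit2 held 0. The matched letters were the same in the 3 genes, TTTCACTTTC followed by TTTCAGTTTC. Counted from the RefSeq start, they began at -104 and -85 in Ifit1, at -156 and -122 in Ifit3, and at -188 and -154 in Ifit3b. Of all 32851 promoter windows, 1131 (3.44%) held at least 1 match and 74 (0.225%) held 2 or more. The windows of Ifit3 and Ifit3b aligned over 224 positions with 216 identical, so their matches are copies of each other rather than separate examples. The Ifit2 start codon lies in exon 2, 19656 bases after the start of the transcript, whereas those of Ifit1, Ifit3 and Ifit3b lie in exon 1, at 112, 69 and 24 bases. The bases just ahead of that Ifit2 exon (chr19:34570219-34570370) were not searched here. A match to these letters is a description of the sequence, and the lack of one in a window says nothing about which factors act on the gene.

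**Figure D1:**
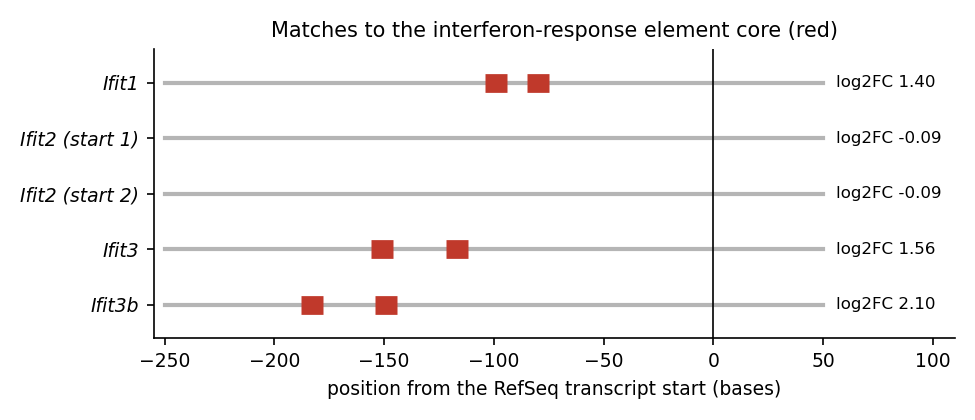
Positions of matches to the response element core (red blocks) in the RefSeq promoter windows (grey lines, in bases from the transcript start), with the log2 fold change of each gene beside its window. Ifit1, Ifit3 and Ifit3b show 2 blocks each, and the 2 windows of Ifit2 show none.

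The libraries had 38792143 counts for shcircCsnk1g3 and 42709996 for shCTR, with 15256 and 15326 genes above 0. Since there was 1 library per condition, no test between conditions could be made, and every interval below is a 95% interval that covers counting error only, not the spread between cultures. Mesenchymal markers were abundant (summed level of 12459 CPM in shcircCsnk1g3 and 13221 in shCTR over 10 genes, where CPM is proportional to the count divided by the TMM-scaled library size), although Thy1 had 0 and 1 count. Of the 9 tested, 7 were lower and 2 higher, with 6 intervals below 0 and 2 above, from Ly6a with 1854 counts against 3223 (log2 fold change -0.69, -0.77 to -0.61) to Col3a1 with 59725 against 49831 (0.37, 0.35 to 0.39). Of the 17 rows for 16 leukocyte markers, 13 were at or under 3 counts in both libraries, among them Ptprc with 1 and 0 and Lyz2, Adgre1 and Tyrobp at 0, and the list summed to 3.72 CPM against 6.39. The 2 leukocyte markers that could be tested were lower, Laptm5 with 45 counts against 102 (log2 fold change -1.04, -1.61 to -0.55) and Cd68 with 87 against 155 (-0.71, -1.12 to -0.34). The endothelial list summed to 0.485 against 0.757 and the lung epithelial list to 3.06 against 1.78 CPM, with Epcam and Sftpc at 0 in both. Of the 3 tested genes of the lung epithelial list, 1 had an interval above 0, the keratin gene Krt8 with 92 counts against 46 (1.07, 0.58 to 1.65), the same direction as 3 of the Ifit genes. The intervals of Foxj1 (12 counts against 7) and Ager (15 against 16) held 0, and Cdh1, not tested, had 1 count against 6. In bulk RNA, fewer cells of a type and less RNA per cell cannot be told apart, and the part of other cells in the values below was not tested. Csnk1g3, the gene that hosts the circle, had 2159 counts against 2411 (log2 fold change -0.05, -0.14 to 0.03), which does not report on the circle, since circular RNA has no poly(A) tail.

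After silencing of circCsnk1g3, 3 of the 4 Ifit genes stood at least 2-fold above the control library and 1 stood at the control level. The fold change is that of CPM scaled by TMM, the trimmed mean normalization of edgeR, with a prior count of 2 that draws low counts toward no change. Its interval is that of the ratio without the prior count. Over all 12941 genes tested, 275 (2.13%) were at least 2-fold higher, 330 (2.55%) were at least 2-fold lower, and the log2 fold change had a median of 0.0023. The counting interval lay above 0 for 26.9% of genes and below 0 for 28.2%, and held 0 for 44.9%, which is the background for the counts of intervals given for the lists. Among the members, 3 intervals lay above 0 and 1 held 0.

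Ifit1 (ENSMUSG00000034459, chr19:34640871-34650009, plus strand), the sensor of RNA without cap ribose methylation, had 411 counts in shcircCsnk1g3 and 167 in shCTR. These counts correspond to 10.5 CPM (9.49 to 11.5) and 3.95 (3.38 to 4.60). The Ifit1 intervals of the libraries did not overlap, and the log2 fold change was 1.40 (1.14 to 1.68). Without the prior count, the ratio of CPM was 2.65. Ifit1 was rank 148 of 12941 genes in order of fold change. In the set of 10662 genes whose counts summed to 200 or more, of which 60 (0.563%) were at least 2-fold higher, it was rank 30.

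Ifit3 (ENSMUSG00000074896, chr19:34583531-34588731, plus strand) had 225 counts in shcircCsnk1g3 and 81 in shCTR, or 5.74 CPM (5.01 to 6.54) and 1.92 (1.52 to 2.38). Its log2 fold change was 1.56 (1.21 to 1.97), which put it at rank 106 of all genes tested and rank 19 of those with at least 200 summed counts. Without the prior count, its CPM in the silenced cells was 2.99 times that of the control library.

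Ifit3b (ENSMUSG00000062488, chr19:34607970-34613401, plus strand) was the least abundant member, with 62 counts in shcircCsnk1g3 and 14 in shCTR. At 1.58 CPM (1.21 to 2.03) against 0.331 (0.181 to 0.556), its log2 fold change was 2.10, and the interval was wide (1.40 to 3.21). Without the prior count, which matters most for this gene, the ratio of CPM was 4.77 (2.64 to 9.23). Ifit3b was rank 40 of all genes tested. Its rank rests on few counts, since 10 counts in each library leave an interval of 1.42 on the log2 scale to either side and 100 counts leave 0.41.

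Ifit2 (ENSMUSG00000045932, chr19:34550694-34576419, plus strand) was the most abundant member by counts in both libraries, with 613 counts in shcircCsnk1g3 and 705 in shCTR. Its levels of 15.6 CPM (14.4 to 16.9) and 16.7 (15.5 to 17.97) had overlapping intervals. The log2 fold change was -0.09 with an interval from -0.25 to 0.06, so that a change in Ifit2 beyond counting error was not detectable at this depth, and the interval reaches neither a 1.5-fold rise nor a 1.5-fold fall. Ifit2 was rank 8605 of 12941.

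**Figure D2:**
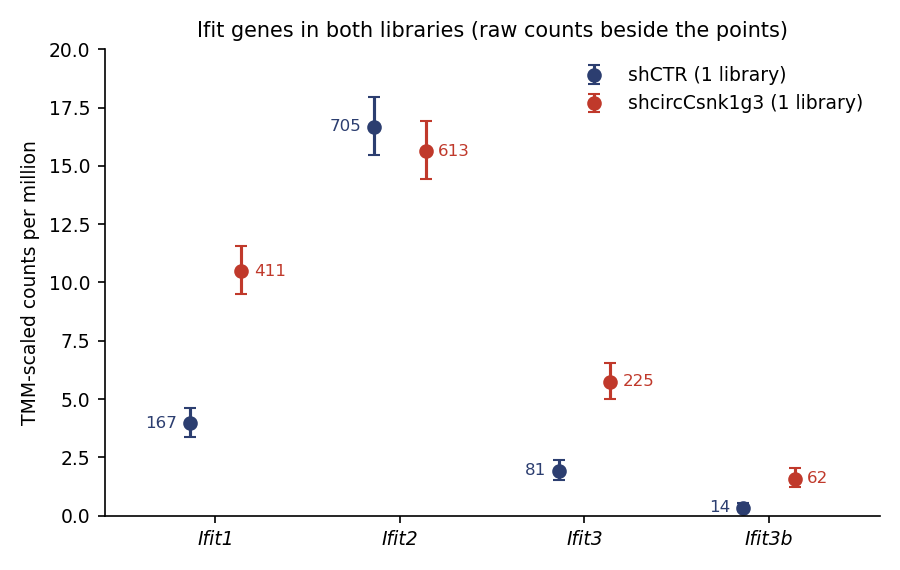
TMM-scaled CPM of each Ifit gene in the shCTR library (blue) and the shcircCsnk1g3 library (red), 1 library per condition, with bars for the exact 95% counting interval and the raw count beside each point. The red points lie above the blue ones for Ifit1, Ifit3 and Ifit3b, and the bars of Ifit2 overlap.

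The members could be compared with each other within the same 2 libraries, because library scaling cancels in a ratio of ratios. Ratios of fold changes between members were taken from the counts without the prior count. Over the 6 pairs, the fold change of Ifit1 was 2.83 times that of Ifit2 (2.28 to 3.51). The fold change of Ifit2 was 0.313 times that of Ifit3 (0.234 to 0.415) and 0.197 times that of Ifit3b (0.101 to 0.359). Ifit2 therefore stood apart from each of the other members by more than counting error. The intervals of the 3 other pairs held 1. The fold change of Ifit1 was 0.886 times that of Ifit3 (0.640 to 1.22) and 0.556 times that of Ifit3b (0.280 to 1.04), and that of Ifit3 was 0.628 times that of Ifit3b (0.307 to 1.21). These wide intervals do not show that the 3 genes had the same fold change.

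The makeup of the family differed between the libraries. Ifit2 held 72.9% of the 967 Ifit counts in shCTR (exact Clopper-Pearson 70.0% to 75.7%) and 46.8% of the 1311 in shcircCsnk1g3 (44.0% to 49.5%). Ifit1 held 17.3% (14.9% to 19.8%) in the control library and 31.4% (28.8% to 33.9%) in the silenced one. Ifit3 held 8.38% (6.71% to 10.3%) against 17.2% (15.2% to 19.3%), and Ifit3b 1.45% (0.794% to 2.42%) against 4.73% (3.64% to 6.02%). The intervals of these shares did not overlap for any of the 4 genes. Because the shares are parts of 1 whole, they cannot move independently, and these are not 4 separate results. The smaller share of Ifit2 does not show a lower level, since its own counts, 613 against 705, did not differ beyond counting error after scaling. The summed counts gave a family log2 fold change of 0.55 (0.43 to 0.67), a value between those of Ifit2 and of the other members. Without Ifit2, a split chosen after its values were seen, the sum was 698 counts against 262 and the log2 fold change was 1.51 (1.31 to 1.73).

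Levels of different genes are compared per length, as counts per kilobase of merged exons scaled to the same total in each library, as for TPM. In shCTR the order was Ifit2 at 13.4 (12.4 to 14.4), Ifit1 at 4.69 (4.01 to 5.46), Ifit3 at 3.46 (2.75 to 4.31) and Ifit3b at 0.522 (0.286 to 0.876). Ifit1 and Ifit3, neighbours in that order, had overlapping counting intervals, while Ifit2 and Ifit3b stood clear of them. In shcircCsnk1g3, Ifit2 at 12.9 (11.9 to 13.96) and Ifit1 at 12.8 (11.6 to 14.1) could not be separated. Ifit3 followed at 10.7 (9.31 to 12.1), with an interval that overlapped those of both, and Ifit3b was clear of them at 2.56 (1.96 to 3.28). By this measure Ifit2 made up 60.7% of the family in the control library and 33.2% in the silenced one. All members lay below the middle of the genes tested: in shCTR their ranks by level ran from 7500 (Ifit2) to 11972 (Ifit3b) of 12941, and in shcircCsnk1g3 from 7706 (Ifit2) to 10571 (Ifit3b).

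How far the counts of the near-identical members can be told apart depends on their sequence. The coding sequences of Ifit3 and Ifit3b, 1209 bases each, differ at 11 positions (99.1% identity), whereas the other 5 pairs of members are 50.6% to 55.97% identical. Of all 50-base windows along the Ifit3 transcript, 48.8% occur in no other GENCODE M21 gene, and along Ifit3b 55.0%. With 100-base windows these shares are 68.3% and 72.6%. For Ifit1 the share is 92.9% at 50 bases and for Ifit2 100%. RSEM, which the authors used, shares out reads with more than 1 matching gene by estimation, so the separate values of Ifit3 and Ifit3b are uncertain. Their sum does not depend on that division: it was 287 counts against 95, a log2 fold change of 1.68 (1.36 to 2.05). Ifit3b took 21.6% of the sum in shcircCsnk1g3 (17.0% to 26.8%) and 14.7% in shCTR (8.30% to 23.5%), intervals that overlap. Against this sum, the fold change of Ifit1 was 0.815 times as large (0.5999 to 1.10) and that of Ifit2 0.288 times (0.220 to 0.374), so the place of Ifit2 is the same when the duplicates are taken as 1 gene.

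The same duplication touches the quantitative PCR primers that the study lists for Ifit3, which are shown with all bases in lower case because no base of them distinguishes the duplicates.
Ifit3 forward: cgagcaaaaatgtgctttga
Ifit3 reverse: gctccccttcagcttcttct

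Both primers match the Ifit3 transcript (chr19:34587515-34587737) and the Ifit3b transcript (chr19:34611885-34612107) with 0 mismatches, and span 223 bases in each, with 2 differing bases between the products. Each primer has at least 6 mismatches at its best place in Ifit1 and Ifit2.

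The 4 members lie on the plus strand of chromosome 19 within 99316 bases, in the order Ifit2, Ifit3, Ifit3b, Ifit1, and no annotated gene overlaps any of them. The gene at one end, Ifit2, was at the control level, and the 3 genes that follow it were higher. The family genes Ifit1bl1 and Ifit1bl2 lie between them, the former with 1 and 0 counts and the latter with 0 in both libraries. A count of 0 allows up to 3 counts, or 0.0765 CPM in shcircCsnk1g3 and 0.0710 in shCTR. Within 500 kb of the members, 15 other genes had a row, and 6 of these were tested, with a median log2 fold change of -0.22. The interval of 1 neighbour lay above 0 (Acta2, smooth muscle actin, 0.17, 0.05 to 0.29) and those of 4 lay below 0, of which Stambpl1, a deubiquitinase gene, was the lowest with 198 counts against 439 (-1.03, -1.29 to -0.80). Lipa, the lysosomal acid lipase gene next to Ifit2, had 323 counts against 458 (-0.39, -0.61 to -0.19). Pank1, a pantothenate kinase gene, had 425 counts against 581 (-0.34, -0.53 to -0.16), and Kif20b, a kinesin gene, 2978 against 3447 (-0.10, -0.17 to -0.03). Fas, a death receptor gene, had 23 counts against 15 (0.65, -0.28 to 1.77). None of the 6 was at least 2-fold higher.

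**Figure D3:**
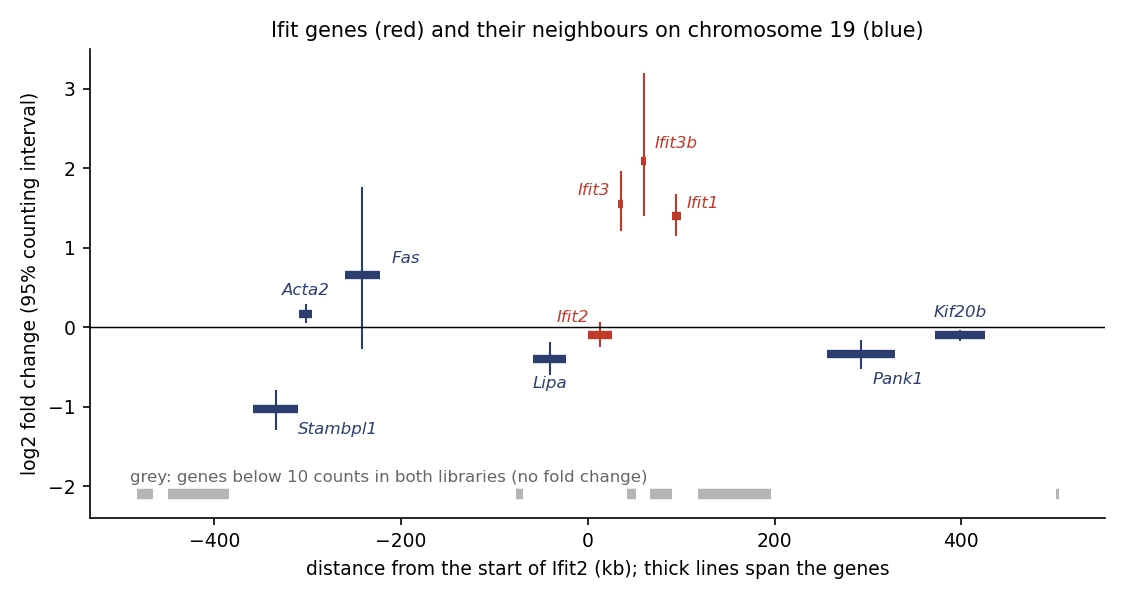
Log2 fold change (vertical axis, with 95% counting intervals) against distance from the start of Ifit2 in kb for Ifit genes (red) and neighbours (blue), with thick lines spanning each gene and grey blocks for genes under 10 counts in both libraries. Ifit3, Ifit3b and Ifit1 lie above 1, and Ifit2 and the 6 neighbours lie below 1.

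The genes of the route that leads to Ifit transcription were measured in the same libraries. Of the interferon genes themselves, 21 had a row, 19 were at 0 in both libraries, and none passed 3 counts. Ifnb1 had 1 count in each library and Ifnz 0 in shcircCsnk1g3 and 3 in shCTR, so no interferon transcript was detectable above that floor at this depth. Among 6 tested genes from receptor to transcription factor, 4 were higher and 2 lower, and the median log2 fold change was 0.15. Irf9, the DNA-binding part of the complex, had 2196 counts against 1073 (1.14, 1.03 to 1.25). Stat2 had 1290 against 756 (0.88, 0.75 to 1.01). Among the receptor and kinase genes, Ifnar1 was at -0.12 (-0.20 to -0.04) and Jak1 at -0.10 (-0.14 to -0.06), whereas Tyk2 was at 0.16 (0.04 to 0.28) and Ifnar2 at 0.15 (-0.0015 to 0.29). Irf9 and Stat2 each had a smaller fold change than Ifit1, Ifit3 or Ifit3b, and a larger one than Ifit2, although the interval of Irf9 overlaps those of Ifit1 and Ifit3.

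Of the 13 tested genes for RNA sensing and IRF proteins, 11 were higher and 2 lower (median 0.15), where 50.4% of all genes were higher. Of their intervals, 6 lay above 0, 1 lay below and 6 held 0, among them those of Irf3, Traf3 and Tbk1. Irf7, an interferon-inducible factor that acts on the same element, had 336 counts against 147 (1.29, 1.02 to 1.59). Ddx58, which encodes RIG-I, had 1806 against 1100 (0.82, 0.71 to 0.93), and Irf1 2093 against 1669 (0.43, 0.34 to 0.53). Irf2, which competes at the element, had 1122 against 1353 (-0.16, -0.28 to -0.05). Among 7 negative regulators of interferon signalling, with Irf2 among them again, 4 were higher and 3 lower (median 0.18), and 3 intervals lay above 0, 3 lay below and 1 held 0. Usp18, which acts at the receptor, had 376 counts against 108 (1.89, 1.59 to 2.23), whereas Socs1 had 326 against 482 (-0.45, -0.66 to -0.25).

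Against other type I interferon-stimulated genes, 3 members stood in the upper part of the order and Ifit2 near the bottom. Of 44 such genes tested, with Usp18 of the negative regulators among them again, 40 were higher and 4 lower. Of their intervals, 37 lay above 0, 16 genes were at least 2-fold higher, and the median log2 fold change was 0.69. In the order of all 48, Ifit3b was rank 1, Ifit3 rank 11, Ifit1 rank 14 and Ifit2 rank 45. The first place of Ifit3b rests on 62 counts against 14, and its interval (1.40 to 3.21) holds the values of Gbp3 and Ifi44, which follow it. The sum of Ifit3 and Ifit3b, at 1.68, lies below both of these. Gbp3, a guanylate-binding protein gene (1.99, 1.70 to 2.32), and Ifi44 (1.97, 1.70 to 2.29) followed Ifit3b. Isg15, the ubiquitin-like modifier, had 1029 counts against 394 (1.49, 1.32 to 1.66) and lay between Ifit3 and Ifit1. The genes below Ifit2 were Tdrd7 with 1750 counts against 2018 (-0.10, -0.19 to -0.0050), Ifitm3, a membrane protein that blocks virus entry, with 13918 against 21128 (-0.49, -0.53 to -0.46), and Isg20, an exonuclease gene, with 430 against 710 (-0.61, -0.79 to -0.44). The interval of Tdrd7 overlapped that of Ifit2, and those of Ifitm3 and Isg20 lay below it.

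**Figure D4:**
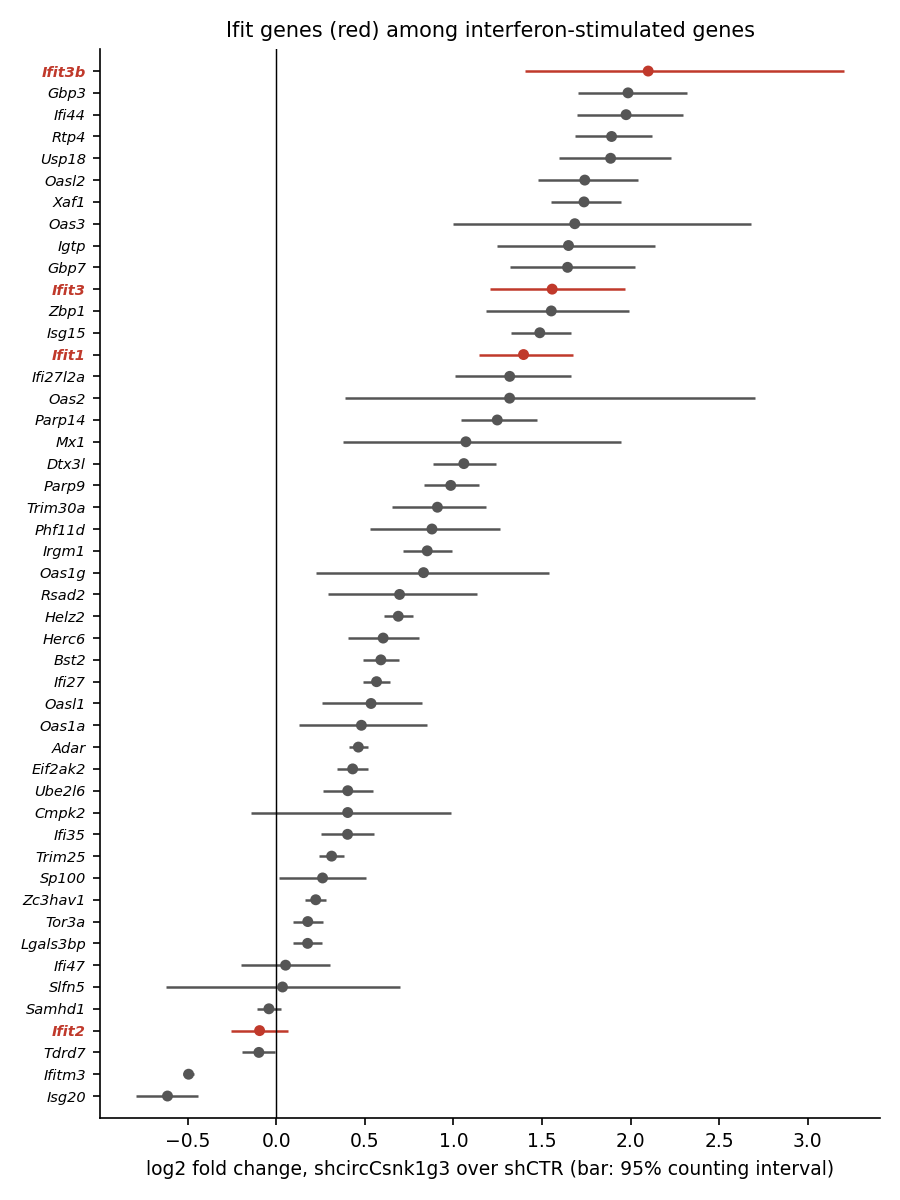
Log2 fold change, shcircCsnk1g3 over shCTR, of 48 interferon-stimulated genes in order (points, with bars for 95% counting intervals), with Ifit genes in red. Ifit3b is at the top at 2.10 with the wide interval of 1.40 to 3.21, Ifit3 and Ifit1 are at ranks 11 and 14, and Ifit2 is at rank 45 at -0.09.

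The genes that make or remove the RNA ends that Ifit1 reads, and those of the translation factor that Ifit proteins are known to bind, had list medians close to that of all genes. Of 10 tested genes for capping, cap methylation and cap removal, 5 were higher and 5 lower, with a median log2 fold change of 0.0088, and 2 intervals lay above 0 and 2 below. Cmtr1, the methyltransferase that places the first ribose methylation, had 4797 counts against 4979 (0.05, -0.0037 to 0.11), and Cmtr2, which places the next, 893 against 853 (0.17, 0.04 to 0.31). Dcp2, a decapping enzyme, had the highest value, 0.34 (0.24 to 0.45), and Rngtt, the capping enzyme, the lowest, -0.11 (-0.21 to -0.0029). The 14 Eif3 subunit genes had a median of -0.07 and ran from -0.21 (Eif3i) to 0.20 (Eif3j1), 6 being higher and 8 lower, and 4 of their intervals lay above 0 and 8 below. No gene of either list was 2-fold higher or lower.

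**Figure D5:**
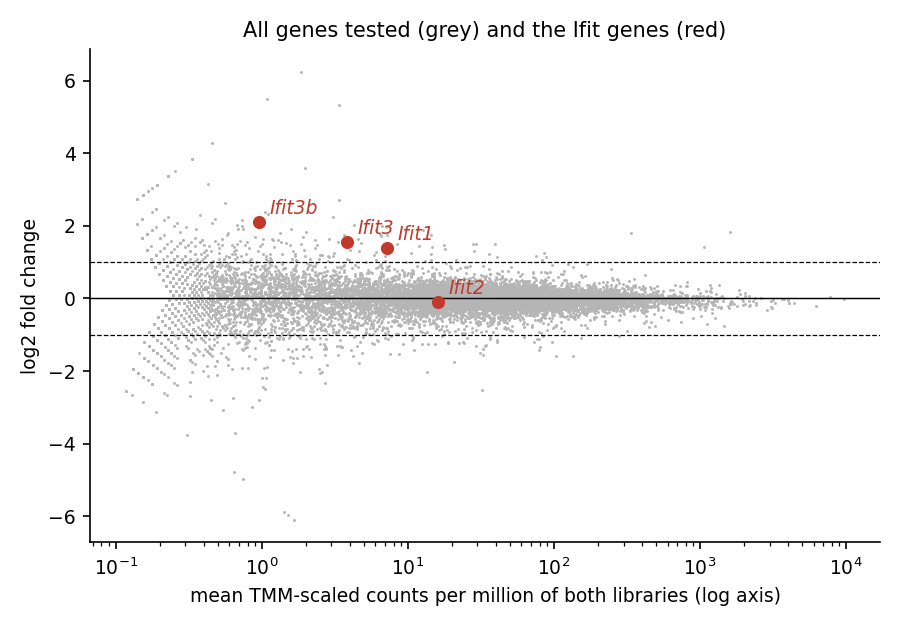
Log2 fold change (vertical axis) against the mean TMM-scaled CPM of both libraries (log axis) for the 12941 genes tested (grey) and the Ifit genes (red), with dashed lines at a 2-fold change. Ifit1, Ifit3 and Ifit3b lie above the upper dashed line and Ifit2 lies at -0.09, within the grey band.

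The genes with at least 200 summed counts whose fold change was nearest to that of the summed Ifit counts (0.55) were Gm20939 (0.55), Cryz (0.55), Spata6 (0.55), Sik1 (0.55), Zfp184 (0.54) and Stk40 (0.54). This likeness is in 1 contrast of 2 libraries, and many genes share any given value.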

How the data were processed

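RNA was taken from 1 shcircCsnk1g3 and 1 shCTR library. The authors made stranded poly(A) libraries, aligned reads to GRCm38 with STAR and estimated a count per gene with RSEM, and the deposited counts are whole numbers. The authors also deposited TMM-scaled CPM for 11624 genes, used here as an alternative only, each column being its count column times 1 constant. Rows of 92 spike-in RNAs, all at 0, were set aside. The GENCODE release, the read length and the strand setting of the counting are not given in the sources used here.

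TMM factors came from edgeR 4.0.16 in R 4.3.3, fitted on the 12941 genes that reached 10 counts in at least 1 of the libraries. Fold changes used a prior count of 2, whereas their intervals and the ratios of ratios used the counts without it. The depth of 38792143 and 42709996 counts sets the intervals, which are exact (Clopper-Pearson for ratios and shares, conditional for ratios of ratios, Poisson for levels) at 95% and cover counting error only, also because reads were not counted by molecular identifiers. A count of 3 was taken as the floor. Lengths, transcripts and gene positions came from GENCODE M21 (25251 of 25509 identifiers matched), and promoter windows from RefSeq on GRCm38.p6. Other steps used python 3.11.15, numpy 2.4.6, pandas 2.3.3, scipy 1.17.1, biopython 1.88 and matplotlib 3.10.9. The steps were tested on simulated data with counting error only, in which only genes with higher counts were changed. That test does not cover the spread between cultures, the sharing of reads or changes in genes with few counts.

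Alternatives were DESeq2 1.42.0 size factors, total counts, prior counts of 0.5 and 10, the deposited CPM, no count filter or a summed count of at least 50 or 200, fold thresholds of 1.5 and 4, Ifit3 and Ifit3b summed, sums without members, and lengths of the longest transcript. A result for 1 gene is not reported here. The members and gene lists were chosen with earlier results of these data known. Named are the members, the other family genes, the tested neighbours within 500 kb, up to 6 genes of each list (the most abundant and the most changed), the 6 genes nearest to the family fold change, and Csnk1g3. Genes named outside that rule (some markers at 0, the genes of the RNA sensing route the 2 cap methyltransferases, and interferon-stimulated genes beside a member in the order) were chosen for their known role or place in that order, after values were seen.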

Additional observations from a re-analysis of the deposited data

How the results depend on the processing

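No paired analysis was possible because each condition has 1 library, and no replicate could be left out for the same reason. The 22 alternative values of the members' fold changes kept their direction, with ranges of 1.35 to 1.43 for Ifit1, -0.10 to -0.06 for Ifit2, 1.47 to 1.68 for Ifit3 and 1.66 (prior count of 10) to 2.21 (prior count of 0.5) for Ifit3b. The 4 alternative pair ratios, with Ifit3 and Ifit3b summed, kept their direction and whether their interval held 1. The family fold change was 0.34 without Ifit3 and Ifit3b and 1.51 without Ifit2, an alternative added after seeing the data, and moved little in 6 other settings. Genes at least 2-fold higher and lower (275 and 330) numbered 150 and 171 with a prior count of 10, 107 and 168 in the deposited table, 732 and 623 with no count filter, 132 and 157 with at least 50 summed counts, 60 and 79 with at least 200, 698 and 817 at 1.5-fold and 49 and 52 at 4-fold. The length-scaled levels with the longest transcript were 9.78 in shcircCsnk1g3 and 3.59 in shCTR for Ifit1, 10.1 and 10.5 for Ifit2, 8.15 and 2.65 for Ifit3, and 1.96 in shcircCsnk1g3 for Ifit3b. Of 76 list medians, 74 moved by less than the median half-width of the counting intervals of the list's genes. That yardstick is not an interval of the list median. It was wide for the lung epithelial list (1.11), whose median of 0.73 ran from 0.37 to 1.08. The mesenchymal median (-0.14) was -0.11 with total counts and -0.18 over 10 genes with no filter. The median of all genes was 0.03 with total counts. All these values were computed from the same 2 libraries, so they differ through the settings. For Ifit1, Ifit3 and Ifit3b the merged exons and the longest transcript have the same length (2656, 1745 and 2000 bases). Their length-scaled levels therefore differ only through the total over all genes. The depth limits Ifit3b most, and with 1 library per condition the spread between cultures is unknown for every value.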
